A study of Mus musculus with 8 samples.

Results

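The clustered protocadherins are the cell adhesion genes encoded in the alpha, beta and gamma arrays on mouse chromosome 18. They were examined in the vomeronasal organ, the pheromone-sensing organ of the nasal septum, of mice carrying or lacking a working copy of Tex15. Members were all rows of the expression table whose symbol began with Pcdha, Pcdhb or Pcdhg, which gave 56 of 27532 genes. The alpha cluster held 13 (11 alternate genes and the C-type genes Pcdhac1 and Pcdhac2), the beta cluster 22, and the gamma cluster 21 (11 of type A, 7 of type B and 3 of type C). In GRCm38 the listed alpha genes spanned positions 36930184 to 37187661 of chromosome 18, the beta genes 37264938 to 37524479, and the gamma genes 37661793 to 37841873. Pcdha10 and Pcdhga10 were not analysed here. The levels were spread very unevenly over the family, with Pcdhb1 highest in all 8 libraries, and no member passed the test for a genotype difference.

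Bulk RNA sequencing was done on the organ of 4 adult Tex15 heterozygous mice (Tex15Het) and 4 adult Tex15 knockout mice (Tex15KO). Tex15 is known in germ cells for its part in the silencing of transposons through DNA methylation, and the comparison asks what differs when the gene is lost from the whole animal. All controls were heterozygotes; wild-type mice were not analysed here. Tex15Het replicate 1 was male at 11.4 weeks of age, replicate 2 was female at 14.6 weeks, and replicates 3 and 4 were females at 11.9 weeks. Tex15KO replicate 1 was female at 11.9 weeks, replicates 2 and 3 were males at 11.9 weeks, and replicate 4 was male at 12.1 weeks. The titles of Tex15Het replicates 1 and 2 carry lower animal numbers than those of the remaining 6 mice, and date-like fields not shared by them; those 6 are called the later-numbered animals below. Among the later-numbered animals, Tex15KO replicate 4 carries a date-like field of its own, and the rest share the same field. No knockout shares the lower numbers, and the labels do not say what the date-like field stands for.

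In neurons, clustered protocadherins form homophilic adhesion complexes that let the branches of a cell recognise each other, and they take part in the sorting of olfactory axons. Each alternate gene of the alpha and gamma clusters is a variable exon with a promoter of its own, spliced to constant exons shared by its cluster, whereas each beta gene is a complete coding exon without constant exons. Single neurons transcribe a small, largely random subset of the alternate and beta promoters, chosen through CTCF and cohesin looping to distant enhancers and kept in part by promoter methylation, while C-type genes are transcribed more regularly. Bulk tissue averages over such choices, so the values below do not show which promoters a single cell used. In bulk samples fewer cells of a type and less RNA per cell cannot be told apart.

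The levels printed are those of the variable exon of each gene. Values were TPM, that is, reads per length of the gene scaled to a common sum of 1000000 per library. When each member's value was converted back to reads with the length of its first exon, 448 of 448 values were whole numbers within a tolerance of 0.02 reads. With the full exon length, 176 of 176 beta values but only 12 of 272 alpha and gamma values (4.41%) were whole, so the shared constant exons did not enter these lengths. Levels are therefore set side by side per length of these exons. Alpha and gamma variable exons lie further from the polyA tail than beta exons do, and whether polyA selection affected the clusters unequally was not tested. Of the 56 counted exons, 38 shared no 150-base stretch with the counted exon of another member or with a transcript of a gene outside the family. Transcripts of 3 annotated read-through genes were left out of this comparison. The lowest unique share of 150-base stretches was 89.5%, in Pcdhgc5. An annotated gene on the opposite strand overlapped the counted exon of 13 members, among them Pcdhgc3 and Pcdha4, and neither the use of strand in the counting nor the handling of multi-mapping reads was given in the sources used here. For the members with repeated stretches, reads from those stretches may therefore have been dropped or shared between genes.

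Recovered depth ran from 17876791 to 26389203 reads per library, of which 2840 to 6046 fell in clustered protocadherins. Depth set a limit for a member of 3 reads, which corresponded to 0.0211 to 0.139 TPM depending on exon length and library. Tex15 itself was at 2.52 ± 0.279 TPM in Tex15Het and 1.09 ± 0.155 TPM in Tex15KO libraries (SD, n = 4), without overlap. Its fitted log2 fold change was −1.03 (SE 0.38), or −1.22 with the change of the median gene subtracted, and limma with Benjamini-Hochberg adjustment did not call the fitted value (adjusted p = 0.794). After median-ratio scaling the fitted value was also −1.22 (SE 0.24, limma adjusted p = 0.112). The labels do not say which exons the knockout allele lacks. The median-ratio scaling factors of the libraries ran from 0.666 in Tex15Het replicate 2 to 1.39 in Tex15Het replicate 3, and the 10 highest genes took between 22.8% of all TPM in Tex15Het replicate 3 and 44.9% in Tex15Het replicate 1. The median tested gene differed by 0.19 on the log2 scale between genotypes as deposited and by −0.01 after median-ratio scaling, so every genotype log2 fold change of a gene below has that median subtracted and is called the relative log2 fold change. The p-values test the fitted change, before this subtraction.

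Nearly the whole family was detected in the organ, and most of it at low levels. At least 1 read was recovered in all 8 libraries for 55 of 56 members, the exception being Pcdha4. Pcdha8 had 1 read in Tex15KO replicate 1, below the limit of 3 reads. By mean TPM over the 8 libraries, 4 members were at 5 or more, 8 between 2 and 5, 21 between 1 and 2, 17 between 0.5 and 1, and 6 below 0.5. The 4 highest genes, in the same order in both genotypes, were Pcdhb1, Pcdhb9, Pcdhac2 and Pcdhgc3, so each cluster had a member among them. Pcdhb1 exceeded Pcdhb9 in 8 of 8 libraries, and Pcdhac2 exceeded Pcdhgc3 in 8 of 8. Pcdhb9 exceeded Pcdhac2 in only 4 of 8, and Pcdhgc3 exceeded the next gene, Pcdhgb6, in 6 of 8, so those neighbours did not differ beyond their spread. From Pcdhgb6 downward the means of neighbours differed by less than the SD of either gene, except at 2 steps. Pcdhb20 exceeded Pcdhb16 in 8 of 8 libraries, and the lowest pair, Pcdhb2 and Pcdha4, also lay further apart.

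**Figure D1:**
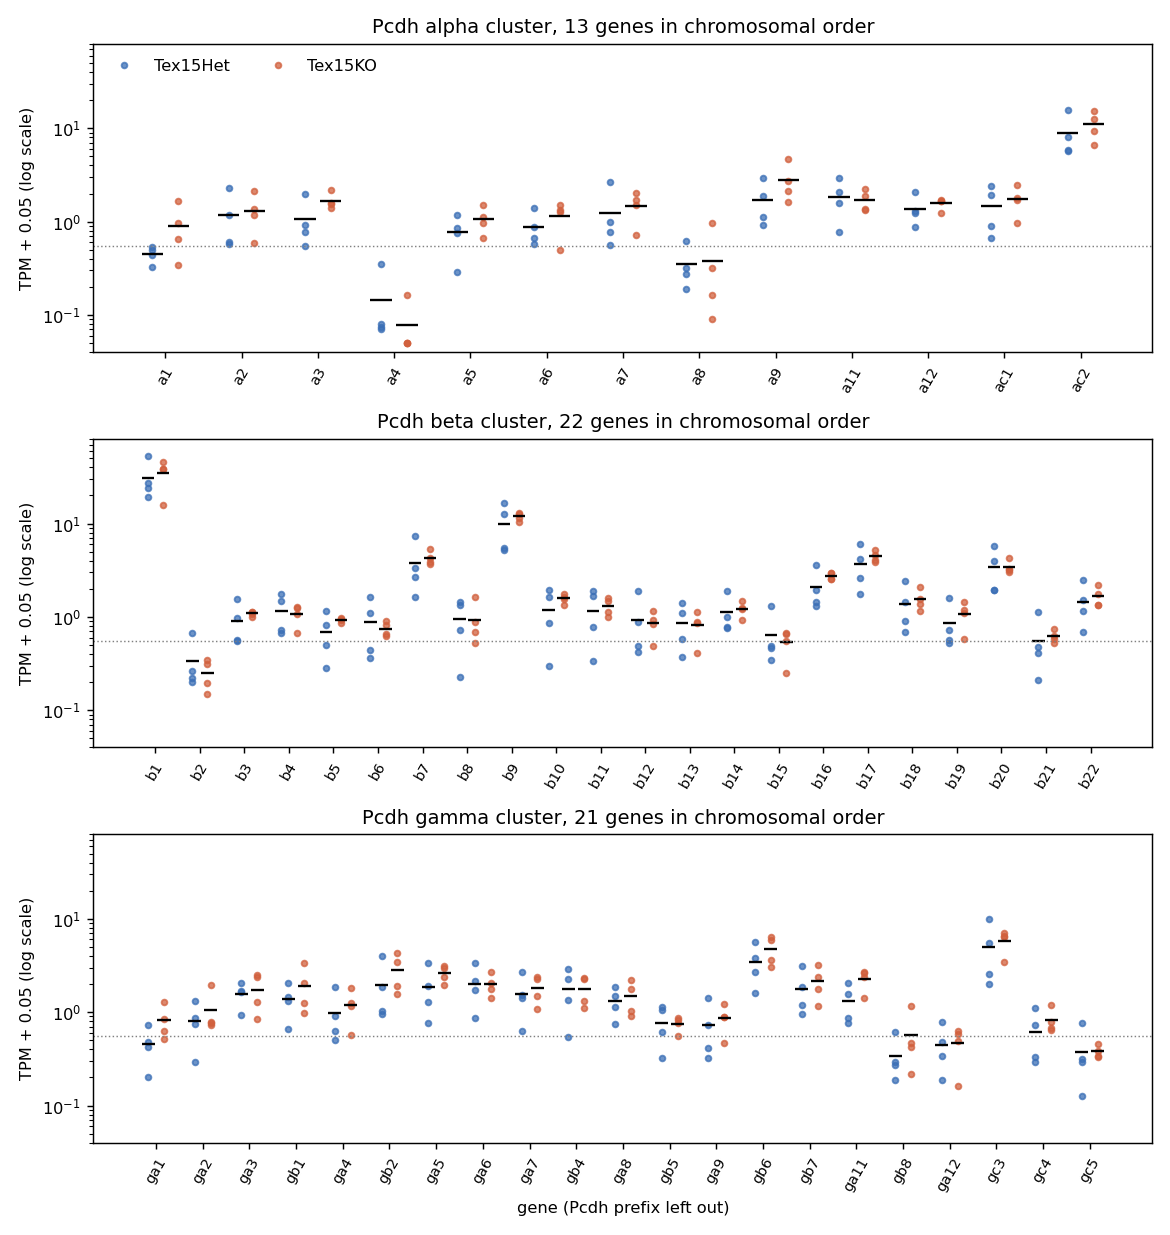
Level of each clustered protocadherin in chromosomal order, in TPM with 0.05 added on a log axis, with points for libraries (blue Tex15Het, orange Tex15KO, n = 4 each), black bars for means and the dotted line for the 0.5 TPM filter. Pcdhb1, Pcdhb9, Pcdhac2 and Pcdhgc3 stand highest in both genotypes, and Pcdha4 lowest.

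In the beta cluster Pcdhb1 dominated. Pcdhb1, the gene nearest the alpha cluster, is known for lacking the conserved CTCF-binding promoter element found in most other members. It was at 27.5, 19.0, 53.4 and 24.0 TPM in Tex15Het replicates 1 to 4 and at 15.8, 37.9, 38.1 and 46.0 TPM in Tex15KO replicates 1 to 4. Tex15Het replicate 3 was highest, Tex15KO replicate 1 was lowest, and the groups overlapped. Pcdhb1 took 46.7% ± 7.93 of beta TPM in Tex15Het and 43.6% ± 10.2 in Tex15KO libraries (SD, n = 4).

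Pcdhb9 ranked behind it, at 5.22, 5.45, 16.7 and 12.5 TPM in Tex15Het replicates 1 to 4 and 13.0, 10.5, 11.4 and 12.6 TPM in Tex15KO replicates 1 to 4. The knockout libraries lay close together, and the heterozygous ones split into low values in replicates 1 and 2 and high values in replicates 3 and 4. Averaged over all libraries, 4 further beta genes stood above 2 TPM, namely Pcdhb17 at 4.02, Pcdhb7 at 3.99, Pcdhb20 at 3.38 and Pcdhb16 at 2.37 TPM. The other 16 beta genes lay below 2 TPM. Pcdhb2, the neighbour of Pcdhb1, was the lowest beta gene, at 0.289 ± 0.222 TPM in Tex15Het and 0.203 ± 0.0941 TPM in Tex15KO libraries (SD, n = 4).

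In the alpha cluster the C-type gene Pcdhac2 was the leading member. Pcdhac2, which serotonergic axons need for even spacing and which also lacks the conserved CTCF-binding element, was at 7.95, 5.82, 15.6 and 5.73 TPM in Tex15Het replicates 1 to 4. In Tex15KO replicates 1 to 4 it was at 6.55, 9.40, 12.5 and 15.4 TPM. Both groups reached about the same highest level and overlapped. Pcdhac2 accounted for 38.0% to 47.2% of alpha TPM in every library, a narrow range beside that of Pcdhb1 in beta.

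Pcdhac1, the other alpha C-type gene, was lower by 4.21-fold to 9.30-fold in each library, at 1.43 ± 0.821 TPM in Tex15Het and 1.69 ± 0.611 TPM in Tex15KO (SD, n = 4). Among the 11 alternate alpha genes Pcdha9 was highest on average over all libraries, although in Tex15Het the mean of Pcdha11 was higher (1.79 against 1.65 TPM). Levels of Pcdha9 were 1.82, 1.07, 2.85 and 0.874 TPM in Tex15Het replicates 1 to 4. In Tex15KO replicates 1 to 4 they were 1.58, 2.09, 2.69 and 4.65 TPM, with Tex15KO replicate 4 above the rest. Pcdha4 was the lowest of all members. It had 1, 1, 8 and 1 reads in Tex15Het replicates 1 to 4 and 0, 4, 0 and 0 reads in Tex15KO replicates 1 to 4, which is at the limit of detection, so no fold change is given. Levels in the alpha cluster tended to be higher toward its C-type end, with a Spearman coefficient of 0.72 between mean TPM and gene order over 13 genes and 0.58 over the 11 alternate genes. The same coefficient was 0.10 over the 22 beta genes and −0.16 over the 21 gamma genes. These are descriptions across genes measured in the same libraries.

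The gamma cluster had no member as dominant as those of the other clusters. Its highest gene, Pcdhgc3, a C-type gene known for promoting dendrite growth and for binding Axin1, was at 2.49, 1.94, 9.90 and 5.49 TPM in Tex15Het replicates 1 to 4. In Tex15KO replicates 1 to 4 it was at 6.42, 3.38, 6.38 and 6.99 TPM. Tex15Het replicates held both the lowest and the highest value, and Pcdhgc3 took 10.7% to 23.5% of gamma TPM depending on the library.

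The other gamma C-type genes were far lower. Pcdhgc4, which is needed for the survival of cortical interneurons, was at 0.566 ± 0.385 TPM in Tex15Het and 0.772 ± 0.247 TPM in Tex15KO libraries (SD, n = 4). Pcdhgc5, known to interact with GABA-A receptors, was at 0.326 ± 0.278 and 0.329 ± 0.0581 TPM, and stayed below the level tested. Pcdhgc4 and Pcdhgc5 lack the conserved CTCF-binding element, as Pcdhb1 and Pcdhac2 do, so the 4 genes without the element included the highest member of the family and some of the lowest.

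Within the gamma B class Pcdhgb6 was highest, at 2.62, 1.55, 5.56 and 3.79 TPM in Tex15Het replicates 1 to 4 and 2.98, 3.61, 5.83 and 6.36 TPM in Tex15KO replicates 1 to 4. Among gamma A genes Pcdhga5 had the highest mean over all libraries, although in Tex15Het the mean of Pcdhga6 was higher (1.96 against 1.79 TPM). Pcdhga5 was at 1.22, 0.712, 3.34 and 1.88 TPM in Tex15Het replicates 1 to 4. In Tex15KO replicates 1 to 4 it was at 2.35, 1.90, 3.07 and 2.91 TPM. For Pcdhgb6 and Pcdhga5 Tex15Het replicate 2 was lowest and the groups overlapped. Gamma A and B genes alternate along the chromosome, and their levels showed no trend along it, with a Spearman coefficient of −0.07 over 18 genes.

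Summed over genes, the beta cluster carried more than the alpha and gamma clusters together in every library, and each cluster's sum overlapped between the genotypes. Summed beta TPM was 49.7, 38.0, 118 and 65.7 in Tex15Het replicates 1 to 4 and 55.5, 75.6, 79.97 and 94.96 in Tex15KO replicates 1 to 4. Summed alpha TPM was 18.9, 12.3, 36.3 and 15.1 in Tex15Het and 15.9, 24.0, 27.6 and 37.4 in Tex15KO. Summed gamma TPM was 23.3, 12.9, 51.6 and 29.7 in Tex15Het and 27.3, 27.6, 41.7 and 51.3 in Tex15KO. As deposited, all clusters were lowest in Tex15Het replicate 2, beta and gamma were highest in Tex15Het replicate 3 and alpha was highest in Tex15KO replicate 4. After median-ratio scaling alpha was lowest in Tex15Het replicate 4, at 13.7 TPM, beta was highest in Tex15KO replicate 2, at 87.2 TPM, and gamma was highest in Tex15KO replicate 4, at 38.3 TPM.

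The log2 ratio of the genotype means of these sums, with no median gene subtracted, was 0.35 for alpha, 0.17 for beta and 0.33 for gamma. After median-ratio scaling it was 0.20, 0.09 and 0.23. Within the later-numbered animals alone it was 0.03 for alpha, −0.26 for beta and −0.14 for gamma as deposited, and 0.26, −0.03 and 0.06 after scaling. The beta ratio therefore turned without Tex15Het replicates 1 and 2 on both scales, and the gamma ratio only as deposited. Scaling brought the libraries closer, since the sum of all clusters spanned 3.25-fold between the lowest and highest library as deposited and 1.55-fold after scaling.

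**Figure D2:**
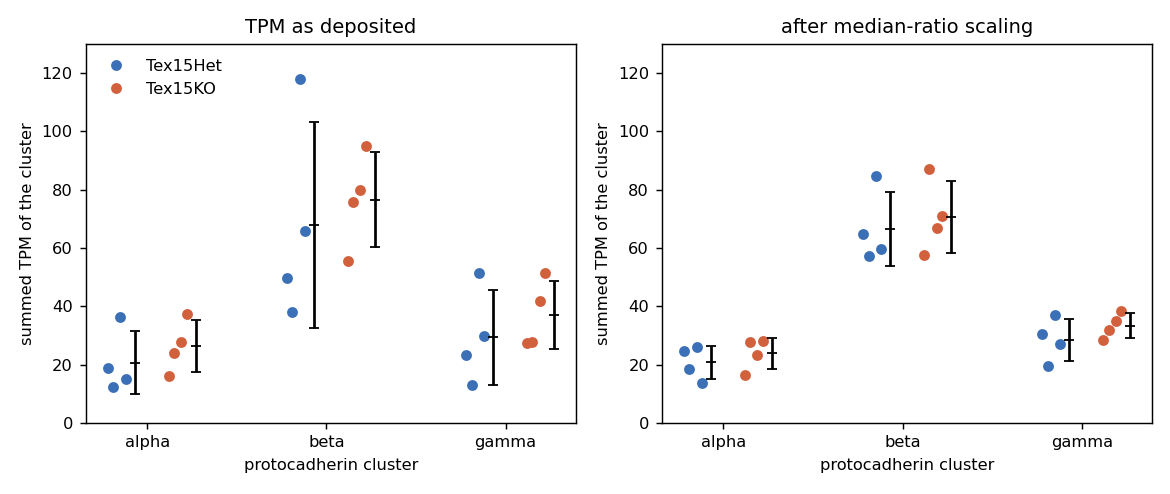
Summed TPM of the alpha, beta and gamma clusters per library (points) with genotype means and SD (bars, n = 4), as deposited on the left and after median-ratio scaling on the right. The beta cluster is highest in both genotypes, the groups overlap in each cluster, and the spread is smaller after scaling.

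The division of the family among its clusters differed little between the genotypes. The beta cluster held 57.7% ± 2.68 of clustered protocadherin TPM in Tex15Het and 55.2% ± 3.36 in Tex15KO libraries (SD, n = 4). The alpha cluster held 17.8% ± 3.03 and 18.5% ± 1.75, and the gamma cluster 24.4% ± 2.78 and 26.3% ± 3.06. The differences were smaller than the SD of either genotype in each cluster, and the library values overlapped. Within these clusters the alternate alpha genes held 8.94% in Tex15Het and 9.58% in Tex15KO, the alpha C-type genes 8.89% and 8.88%, gamma A genes 10.6% and 11.2%, gamma B genes 9.22% and 9.98%, and gamma C-type genes 4.59% and 5.12%. A library-wide scaling factor does not affect such shares.

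How evenly a cluster's RNA was spread over its genes was described by an effective number of genes (the exponentiated Shannon entropy of their shares of TPM), which equals the number of genes when all are at the same level. The gamma cluster was the most even, with 16.2 ± 0.740 effective genes of 21 in Tex15Het and 16.0 ± 1.02 in Tex15KO libraries (SD, n = 4). The alpha cluster had 7.36 ± 0.474 and 7.46 ± 0.498 of 13. The beta cluster, with 22 genes, had only 7.93 ± 1.43 and 8.26 ± 1.52, and without Pcdhb1 the remaining 21 beta genes had 13.3 ± 0.559 and 12.8 ± 0.795. For the whole family the number was 24.4 ± 2.43 in Tex15Het and 25.8 ± 2.39 in Tex15KO, again with overlapping libraries. Members at 0.5 TPM or more numbered 39, 32, 54 and 45 in Tex15Het replicates 1 to 4 and 44, 48, 50 and 53 in Tex15KO replicates 1 to 4.

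No clustered protocadherin was called as differing between the genotypes. Of the 56 members, 50 reached a mean of 0.5 TPM and were tested, and 6 (Pcdha4, Pcdha8, Pcdhb2, Pcdhgb8, Pcdhga12 and Pcdhgc5) were not. Limma on log2(TPM + 0.5), with genotype and sex as terms and Benjamini-Hochberg adjustment over 20305 genes, called 0 of 50 members, and 0 members had an unadjusted p under 0.05. Over all tested genes the same rules gave 0.586% (119 genes) and 3.1% (630 genes). The smallest unadjusted limma p among members was 0.118, and the smallest adjusted p was 0.9995. Limma-voom on the recovered reads also called 0 members, with Pcdha3 and Pcdhb9 at an unadjusted p under 0.05, where 4.44% of all genes in that fit were (891). In 0 of 56 members did the libraries of the 2 genotypes stand apart without overlap, against 1.4% of all tested genes (284).

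Members lay evenly around the median gene, 24 above it and 26 below. The median relative log2 fold change was −0.04 for 11 tested alpha genes, 0.03 for 21 beta genes and −0.04 for 18 gamma genes. The single values ran from −0.38 in Pcdhga3 to 0.49 in Pcdhb9, a range that also held 88.7% of all tested genes when taken as the same size in both directions. As deposited, standard errors were 0.40 to 0.49, the 95% interval stayed within 2-fold in both directions for 18 of 50 members, and the widest intervals allowed a rise of 2.81-fold and a fall of 2.39-fold. Median-ratio scaling of the same libraries gave standard errors of 0.18 to 0.37 and also called 0 of 49 tested members. The interval was then within 2-fold for 44 of 49, the widest allowed a rise of 2.22-fold and a fall of 1.96-fold, and 47 of 49 included 0, the exceptions being Pcdha3 and Pcdhb9. Because sex was unbalanced, the fitted genotype difference put a weight of 0.5 on Tex15Het replicate 1 and on Tex15KO replicate 1, against 0.167 on each remaining library.

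**Figure D3:**
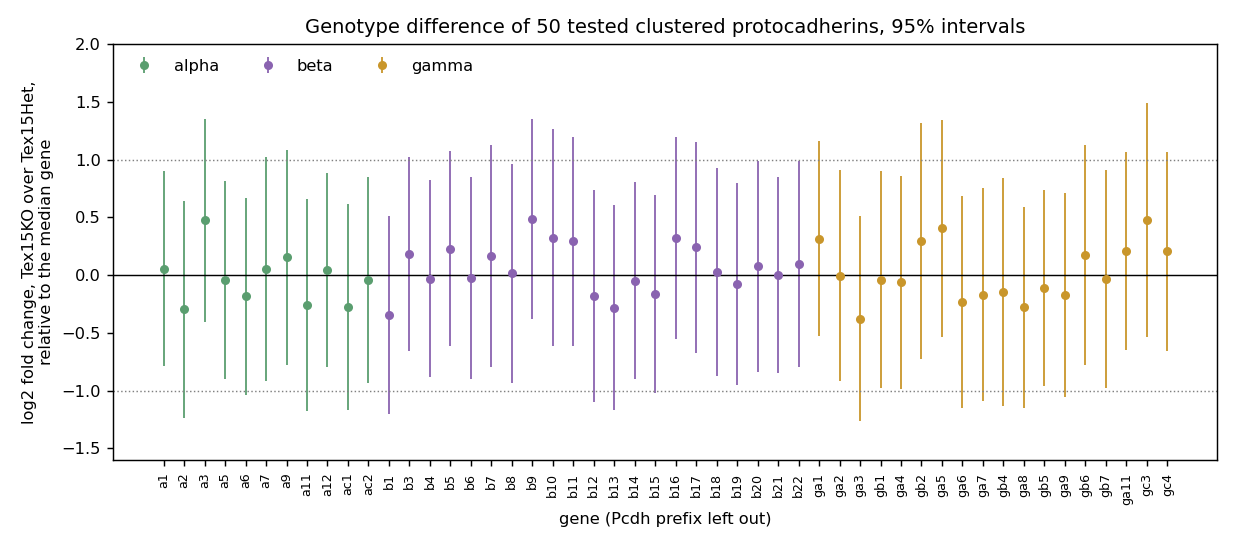
Relative log2 fold change of Tex15KO over Tex15Het for the 50 tested members in chromosomal order, with 95% intervals from the limma fit to 8 libraries, coloured by cluster. Every interval includes 0, and the estimates run from −0.38 to 0.49.

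The 3 members with the largest estimates upward were Pcdhb9, Pcdhgc3 and Pcdha3. Pcdhb9 had a relative log2 fold change of 0.49 (SE 0.42), with an interval of −0.38 to 1.35. Pcdhgc3 stood at 0.48 (SE 0.48) and Pcdha3, an alternate alpha gene, at 0.47 (SE 0.42). Pcdha3 was at 0.494, 0.733, 1.94 and 0.878 TPM in Tex15Het replicates 1 to 4 and 1.34, 1.49, 1.52 and 2.13 TPM in Tex15KO replicates 1 to 4, so a high value in Tex15Het replicate 3 made the groups overlap. Without that library the unadjusted limma p was 0.0424 for Pcdha3, 0.0310 for Pcdhb9 and 0.0390 for Pcdhgc3, where 5.83% of all genes had a p under 0.05, and the adjusted p was 0.750 or higher. Those p-values include a shift of 0.30 in the median gene, and the relative values were 0.54 (SE 0.39), 0.55 (SE 0.37) and 0.61 (SE 0.41), each under 1.5 SE. After median-ratio scaling, which leaves almost no shift, Pcdha3 stood at 0.55 (SE 0.23) and Pcdhb9 at 0.48 (SE 0.18). Their unadjusted p was 0.0460 and 0.0303, where 5.42% of all genes had a p under 0.05, and the limma adjusted values were 0.904 and 0.825. Within the later-numbered animals, with 4 knockout and 2 heterozygous libraries and no sex term, the estimates were −0.09 for Pcdhb9, −0.18 for Pcdhgc3 and 0.39 for Pcdha3, so the direction of Pcdhb9 and Pcdhgc3 turned. With the sex term, where Tex15KO replicate 1 alone stands for the knockout against the same 2 libraries, they were 0.18, 0.13 and 0.33.

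The 3 members with the largest estimates downward were Pcdhga3, Pcdhb1 and Pcdha2. Pcdhga3, a gamma A gene, had a relative log2 fold change of −0.38 (SE 0.42), with 1.57, 0.884, 2.01 and 1.63 TPM in Tex15Het replicates 1 to 4 and 0.794, 1.22, 2.46 and 2.31 TPM in Tex15KO replicates 1 to 4. Its mean TPM was nonetheless higher in Tex15KO (1.70 ± 0.816) than in Tex15Het (1.53 ± 0.469, SD, n = 4), since the fit weights the low value of Tex15KO replicate 1 by 0.5 and the shift of the median gene is subtracted. The alternate alpha gene Pcdha2 stood at −0.30 (SE 0.45). For Pcdhb1 the estimate was −0.35 (SE 0.41). It was 0.09 without Tex15KO replicate 1, where Tex15Het replicate 1 alone stands for the heterozygotes. Without Tex15Het replicate 1, where Tex15KO replicate 1 alone stands for the knockout, it was −0.79. With all libraries and no sex term it was 0.01. Without the sex term the estimates of Pcdhga3 and Pcdha2 were −0.08 and 0.02. Within the later-numbered animals with the sex term, where again Tex15KO replicate 1 alone stands for the knockout, Pcdhb1 stood at −0.83 (SE 0.46). The fitted change was −1.16, with an unadjusted p of 0.0133 and a limma adjusted p of 0.346, the lowest adjusted value of any member under the settings run. In that fit 6.46% of all genes had an unadjusted p under 0.05, and without the sex term Pcdhb1 stood at 0.03 in the same animals.

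The other named members showed estimates within 1 SE of 0. Pcdhb21, just above the level required for testing with a mean of 0.538 TPM, stood at −0.00 (SE 0.41), its values lying between 0.163 and 1.07 TPM in Tex15Het and between 0.479 and 0.700 TPM in Tex15KO. Pcdhga12, just below that level at 0.409 TPM and not tested, was at 0.399 ± 0.258 TPM in Tex15Het and 0.418 ± 0.211 TPM in Tex15KO libraries (SD, n = 4). Among the C-type genes the estimates were −0.28 for Pcdhac1 (SE 0.43), −0.04 for Pcdhac2 (SE 0.43) and 0.21 for Pcdhgc4 (SE 0.41). Pcdha9, Pcdhgb6 and Pcdhga5, the genes of highest mean over all libraries in their classes, stood at 0.15 (SE 0.45), 0.18 (SE 0.46) and 0.40 (SE 0.45).

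The order of the members by level was nearly the same in both genotypes. Across the 56 genes the genotype means on the log2(TPM + 0.5) scale had a Pearson coefficient of 0.983, and the Spearman coefficient was 0.962, both as descriptions over genes that share libraries. Single libraries were about as alike between genotypes as within them: the Pearson coefficient over members was 0.874 to 0.957 for the 12 pairs of libraries of the same genotype and 0.878 to 0.967 for the 16 pairs of different genotype. As deposited, 44 members had a higher mean in Tex15KO and 12 a lower one, and after median-ratio scaling 39 and 17. The share of all genes with a higher mean in Tex15KO was not computed. As deposited the fitted change of the median tested gene was itself 0.19. Relative to that gene the tested members split into 24 above and 26 below. Tex15Het replicate 3 was the highest library for 36 members and Tex15KO replicate 4 for 16, while Tex15Het replicate 2 was the lowest for 37.

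**Figure D4:**
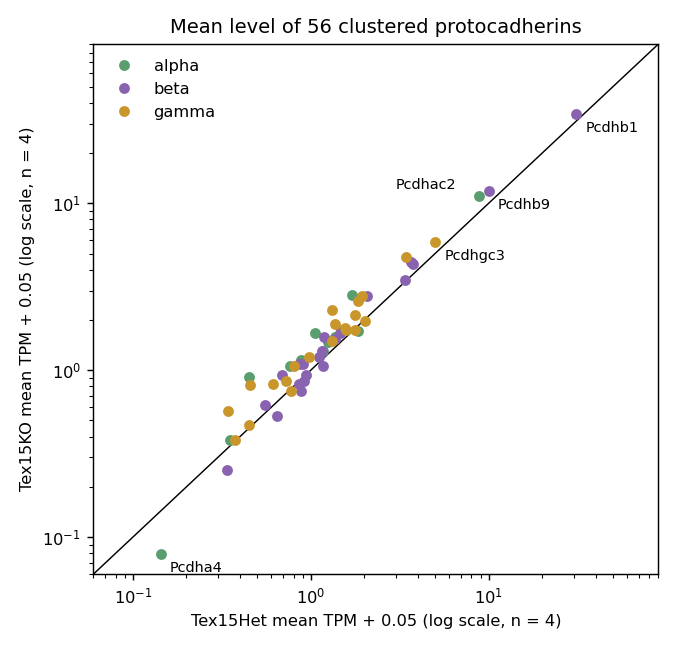
Mean TPM of each of the 56 members in Tex15KO against Tex15Het libraries (n = 4 each), with 0.05 added and log axes, coloured by cluster, with the line of equal means. The members follow the line from Pcdha4 at the low end to Pcdhb1 at the high end.

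Libraries differed in the balance among the leading genes, and the genotypes overlapped in it. The ratio of Pcdhb1 to Pcdhb9 was 5.26, 3.48, 3.198 and 1.93 in Tex15Het replicates 1 to 4 and 1.22, 3.62, 3.34 and 3.66 in Tex15KO replicates 1 to 4. Pcdhb1 made up 55.2%, 49.9%, 45.2% and 36.6% of beta TPM in Tex15Het replicates 1 to 4 and 28.5%, 50.1%, 47.6% and 48.4% in Tex15KO replicates 1 to 4. The lowest share was thus in Tex15KO replicate 1 and the highest in Tex15Het replicate 1. The ratio of Pcdhac2 to Pcdhgc3, likewise the leading genes of their clusters, was 3.19, 3.004, 1.58 and 1.04 in Tex15Het replicates 1 to 4. In Tex15KO replicates 1 to 4 it was 1.02, 2.78, 1.96 and 2.20. Tex15Het replicate 4 and Tex15KO replicate 1 were the lowest libraries for both ratios, and Tex15Het replicate 1 the highest.

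Marker lists of glia and connective tissue also varied between these libraries. Summed over 8 genes, the list of ensheathing glia and Schwann cells was at 103, 102, 111 and 160 TPM in Tex15Het replicates 1 to 4 and 160, 120, 112 and 147 TPM in Tex15KO replicates 1 to 4. The 8 genes of fibroblasts and cartilage summed to 1177, 890, 4850 and 3490 TPM in Tex15Het replicates 1 to 4 and 4282, 2937, 3935 and 1682 TPM in Tex15KO replicates 1 to 4. As deposited, the glial sum was highest in Tex15Het replicate 4 and Tex15KO replicate 1, the libraries with the lowest ratios of Pcdhb1 to Pcdhb9 and of Pcdhac2 to Pcdhgc3. This match depended on the scale. With median-ratio factors of 0.666 in Tex15Het replicate 2 and 1.10 in Tex15Het replicate 4, the scaled glial sum was higher in replicate 2, whose ratios were not low. The part of these cells in the balance of the leading genes was not tested.

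**Figure D5:**
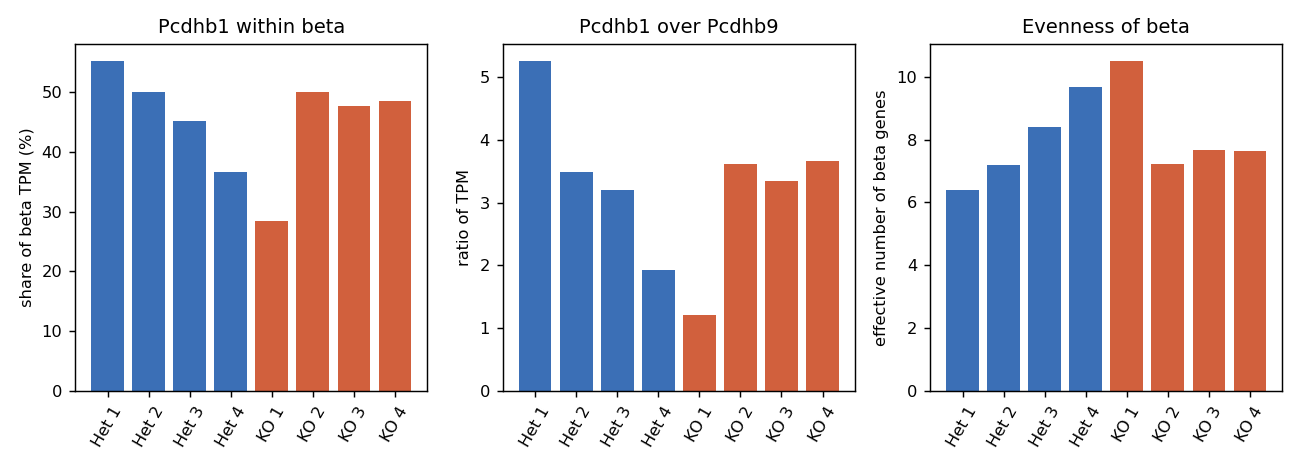
Share of Pcdhb1 in beta TPM (percent), ratio of Pcdhb1 to Pcdhb9 TPM, and effective number of beta genes in each library, with bars from 0 and no error bars because each is 1 library. Tex15KO replicate 1 has the lowest share, the lowest ratio and the highest effective number.

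Sex, the other labelled factor, gave no call among the members either. In the same limma fit 0 members were called for sex, against 0.0492% of all tested genes (10), and 0 had an unadjusted p under 0.05, against 2.27% (460). The fitted difference of males over females ran from −0.56 in Pcdhb9 to 0.66 in Pcdhac1 on the log2 scale, with no median gene subtracted. By sign alone, 9 of 11 alpha genes, 4 of 21 beta genes and 13 of 18 gamma genes were estimated higher in males. The share over all tested genes was not computed. Members share the same libraries, so these counts are not independent and are not read as a trait of the clusters. None of these single differences passed the test, and a difference between clusters in this respect was not tested.

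Genes known to act on protocadherin promoters gave no call by genotype. Of 20 regulators of looping, cohesin loading and promoter methylation, all were tested by limma, 0 were called in either direction and 0 had an unadjusted p under 0.05. Their median relative log2 fold change was 0.09, with a range of −0.07 to 0.32. Ctcf, the insulator protein that anchors the promoters to their enhancers, was at 22.7 ± 7.39 TPM in Tex15Het and 24.5 ± 5.76 TPM in Tex15KO libraries (SD, n = 4), and its estimate was −0.06 (SE 0.37). Dnmt3b, the methyltransferase that methylates protocadherin promoters in the embryo, was at 0.653 ± 0.303 and 0.916 ± 0.346 TPM, with an estimate of 0.16 (SE 0.41). Smchd1, a chromatin repressor of the clusters, was at 4.21 ± 1.78 and 4.90 ± 1.13 TPM, with an estimate of 0.09 (SE 0.42).

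Of 20 genes acting downstream of protocadherins, such as the focal adhesion kinases Ptk2 and Ptk2b and subunits of the WAVE complex, 20 were tested, 0 were called and 0 had an unadjusted p under 0.05 in limma, with a median of 0.03 and a range of −0.22 to 0.27. The focal adhesion kinase Ptk2 was at 6.13 ± 2.07 TPM in Tex15Het and 7.44 ± 1.35 TPM in Tex15KO libraries (SD, n = 4), and its relative Ptk2b at 5.23 ± 2.75 and 6.27 ± 1.95 TPM. Both sets of libraries overlapped.

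The vomeronasal receptor genes, the other families of this tissue from which a neuron picks few members, were narrower in Tex15KO. Effective V1R genes numbered 99.5 ± 12.7 in Tex15Het and 47.4 ± 3.44 in Tex15KO libraries, and effective V2R genes 63.2 ± 0.236 and 34.0 ± 1.87 (SD, n = 4), without overlap in either family. Limma called 10 of 143 tested V1R and 43 of 107 tested V2R genes, beside 0 of 50 protocadherins. For the protocadherins the effective number was 21.7 to 27.2 in Tex15Het and 23.0 to 28.7 in Tex15KO libraries. The difference between the receptor families and the protocadherins was not itself tested.

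Markers of the cells that the organ contains were examined beside these values. Gnai2 and Gnao1, the G protein subunits of apical and basal vomeronasal neurons, were at 114 to 302 TPM and 11.5 to 30.7 TPM over the libraries, and both were detected in each library. Cluster sums were divided by Gnai2 plus Gnao1 TPM, a divisor that at these levels was mostly Gnai2. The log2 genotype ratio was then 0.11 for alpha, −0.00 for beta and 0.17 for gamma. Omp, the marker of mature olfactory and vomeronasal neurons, was at 66.6 TPM in Tex15Het replicate 1 and at 571 to 943 TPM in the other 7 libraries. Tex15Het replicate 1 was the only male heterozygote. Without it, the fit with the sex term set Tex15KO replicate 1 alone against 3 heterozygous libraries. The median relative log2 fold change of the 50 tested members was then −0.00. Whether the low Omp library affected the members was not tested.

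Of 13 marker lists of neuronal, glial, epithelial, vascular, connective, blood and gland cells, 0 genes were called by limma in any, and Omp, Stoml3, Col1a1, Col1a2, Col3a1 and Muc5b had an unadjusted p under 0.05. The median relative log2 fold change was −0.21 for 9 mature neuron genes, 0.06 for 5 apical and −0.15 for 5 basal neuron genes, −0.07 for 7 immature neuron genes and 0.41 for 6 progenitor genes. It was −0.51 for 7 supporting cell genes, 0.21 for 8 ensheathing glia genes, −0.05 for 4 tested astrocyte genes, 0.29 for 7 endothelial genes, 0.43 for 8 fibroblast and cartilage genes, 0.13 for 8 immune genes, 0.40 for 5 red blood cell genes and 0.14 for 8 gland genes. In no list was a gene at 0 in every library. The sums of the ensheathing glia list and of the fibroblast list overlapped between the genotypes. The part of these cell types in the levels of the clustered protocadherins was not tested.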

How the data were processed

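The authors deposited 1 table of TPM values with 1 column for each of 8 libraries, without pooling. Per the submitters' processing notes, Trim Galore 0.6.5, cutadapt 5.1, STAR 2.7.11b and deepTools 3.5.5 were used with mm10 or GRCm38; the counting program was not given in the sources used here. Libraries were directional, polyA-selected and read as pairs of 150 bases from RNA of integrity above 7, per the labels' protocols. Reads were recovered from the steps between low TPM values with GENCODE M21 exon lengths, and 97.2% to 97.8% of low values were whole. Depth covers counting error only.

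The 20305 genes averaging 0.5 TPM or more were fitted on the log2(TPM + 0.5) scale. The fit used limma 3.58.1 (R 4.3.3) with a variance trend and terms for genotype and sex, and Benjamini-Hochberg adjustment ran over all 20305. Fold changes on this scale understate changes of low genes. The labels number separate animals per group. Sums, shares and effective numbers are descriptions without a test.

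Members, gene lists and the naming rule were chosen with earlier results of these data known. Named were Tex15, the C-type genes, the highest gene of each other class, the 3 largest estimates each way, the members nearest the filter, Ctcf, Dnmt3b, Smchd1, Omp, Gnai2 and Gnao1; other genes were named after their values were seen. Trpc2 was not analysed here. The symbol Pcdha11 was taken as deposited. Alternatives were other pseudocounts, filters, scalings, covariates and subsets, and, added after the data were seen, limma-voom on recovered reads and scaled cluster sums within the later-numbered animals.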

Additional observations from a re-analysis of the deposited data

Results flagged for a closer look

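Among 126 groups of 4 libraries examined, 2 held a library far from the other 3 of its genotype. The effective number of beta genes was 10.5 in Tex15KO replicate 1, against 7.22 to 7.66 in the other knockout libraries. The gamma share of clustered protocadherin TPM was 21.7% in Tex15KO replicate 2, against 27.6% to 27.9% in the other knockout libraries. Chance marks about 1 in 20 such groups.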

How the results depend on the processing

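Members called between genotypes numbered 0 in each cluster under all 21 alternatives to the fit, while the genes called overall ran from 72 with no filter on low values to 371 within the later-numbered animals with the sex term. Replicate numbers did not pair the animals: same-numbered libraries had correlated deviations of −0.06, 0.03, 0.10 and −0.00, and with the replicate block 0 members were called. Genes overall then numbered 128 against 119 unblocked with the sex term, and 130 against 132 without it. Leaving out each library in turn also gave 0 members (range 0 to 0), with log2 ratios of summed TPM of 0.13 to 0.77 for alpha, −0.02 to 0.58 for beta and 0.08 to 0.75 for gamma. Differences in cluster share then ran from −0.76 to 1.54 percentage points for alpha, −3.89 to −1.32 for beta and 0.53 to 3.39 for gamma, and in effective number from −0.11 to 0.29, −0.42 to 0.91 and −0.52 to 0.23. Of 256 values of 13 named members under the alternatives, 248 moved by less than 1 standard error and 30 changed sign. With the sex term, a fit without Tex15Het replicate 1 or without Tex15KO replicate 1 leaves a genotype represented by 1 library. The same holds for the later-numbered animals with the sex term. The calls of those fits decide nothing about the members. Limits are the 4 animals per genotype, the sex imbalance, the few reads of low members and the unstated counting.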

Other observations

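Protocadherins encoded outside the clusters were also present in the organ. Of 12 such genes 9 were tested and 0 were called by limma, with a median relative log2 fold change of 0.03 and a range of −0.17 to 0.43, and 0 of the 9 had an unadjusted p under 0.05. Pcdh7, chosen with the other genes of this paragraph after its values were seen, had the highest mean of the set, at 11.3 ± 4.67 TPM in Tex15Het and 15.5 ± 4.08 TPM in Tex15KO libraries (SD, n = 4). Pcdh8 ranged from 0.283 to 0.552 TPM in Tex15Het and from 0.570 to 0.848 TPM in Tex15KO, without overlap as deposited, as in 1.4% of all tested genes, and its relative log2 fold change was 0.21 (SE 0.38). After median-ratio scaling its groups overlapped, with Tex15Het replicate 2 at 0.738 TPM and the knockout libraries at 0.615 to 0.695 TPM. Pcdh19, known for its role in adhesion between cortical neurons, was at 2.92 ± 1.19 and 3.72 ± 0.992 TPM, and stood at 0.03 (SE 0.43).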
